A study of Mus musculus with 6 samples.

Results

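The 10 genes examined here encode parts of polycomb repressive complex 1 (PRC1) and were measured in mouse embryonic stem cells (mESCs) that overexpressed Rbbp4 or Rbbp7. They were listed by name, with no threshold on a measured value but with earlier results of these data known, as ligases of PRC1 and subunits of its PRC1.6 form. The list holds Pcgf6, Mga, Max, L3mbtl2 and E2f6, which belong to PRC1.6, the ligase genes Rnf2 and Ring1, and Pcgf1, Rybp and Cbx7 of other or shared PRC1 forms. All 10 of the 55401 genes in the deposited tables were found, and all 10 entered the tests.

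Every PRC1 complex pairs a RING1 or RNF2 ubiquitin ligase with 1 PCGF protein and places ubiquitin on histone H2A. Canonical complexes carry a CBX protein that reads methylated histone H3, whereas variant complexes carry RYBP or YAF2 instead. PRC1.6 is the variant built on PCGF6, and it reaches DNA through the MGA and MAX pair and through E2F6. In mESCs it is known for holding germline and meiotic genes silent. RBBP4 and RBBP7 are homologous histone-binding proteins, known as subunits of PRC2 and NuRD, other repressive complexes.

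Poly(A) RNA-seq was run on 46C mESCs, with 2 libraries in each of 3 groups. Controls stably expressed the biotin tag alone, Rbbp4 OE cells stably expressed biotin-tagged Rbbp4, and Rbbp7 OE cells stably expressed biotin-tagged Rbbp7. By the study's methods, cells of every group also carried the BirA biotin ligase and were drug-selected after lentiviral infection, and cells grew on gelatin in serum with LIF and the inhibitors CHIR99021 and PD0325901. Levels are in TPM, each gene's share of all transcripts after correction for transcript length, so that levels of different genes can be set side by side; the sequencing depth is unknown and no counting interval can be given.

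The overexpressed genes were read first, as a check of the labels. Rbbp4 was at 146 and 147 TPM in the controls, 270 and 271 TPM with Rbbp4 OE, and 144 and 143 TPM with Rbbp7 OE, a log2 fold change of 0.88 in its own line (limma adjusted p = 0.00173). Rbbp7 was at 239 and 237 TPM in the controls, 208 and 217 TPM with Rbbp4 OE, and 725 and 748 TPM with Rbbp7 OE, a log2 fold change of 1.63 in its own line (limma adjusted p = 2.27e-04). All 8 pluripotency markers were at 98.8 TPM or more in every library. Of the 7 primitive endoderm markers, 5 were below 1 TPM in every library. The others were Foxa2, at 1.86 TPM in the first Rbbp4 OE library, and Dab2, at 2.01 TPM in the first Rbbp7 OE library, each below 1 TPM elsewhere. The summed level of the 7 fibroblast markers ranged from 4.48 to 5.59 TPM in control, 9.09 to 11.7 TPM in Rbbp4 OE and 8.75 to 15.7 TPM in Rbbp7 OE, with Lum and Postn at 0 throughout. Thy1 made most of these sums in all libraries but the first of Rbbp7 OE, with 4.13 and 5.02 TPM in the controls, 8.87 and 10.8 TPM with Rbbp4 OE and 7.01 and 7.04 TPM with Rbbp7 OE, and Col3a1 was at 6.39 TPM in that first Rbbp7 OE library. The summed 6 markers of 2-cell-like cells were at 1.69 to 2.53 TPM in control, 0.42 to 0.75 TPM in Rbbp4 OE and 0.76 to 0.78 TPM in Rbbp7 OE. The 6 trophoblast markers summed to 14.2 to 14.9 TPM in control, 15.1 to 15.9 TPM in Rbbp4 OE and 17.0 to 17.1 TPM in Rbbp7 OE. Of these, Cdx2 was at 4.88 to 5.49 TPM in control and 2.93 to 3.70 TPM in the overexpression libraries, whereas Eomes was at 5.32 to 6.01 TPM in control, 7.59 to 8.12 TPM in Rbbp4 OE and 10.6 to 11.2 TPM in Rbbp7 OE. The part of these cells in any result was not tested.

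The 10 genes differed in level. Cbx7 and Max were the most abundant, with means over the 6 libraries of 87.7 and 85.9 TPM. L3mbtl2 at 63.7 TPM and Rybp at 50.3 TPM came next. Pcgf1 at 39.1 TPM, Rnf2 at 37.1 TPM and Pcgf6 at 34.8 TPM followed. Mga at 15.3 TPM, Ring1 at 13.4 TPM and E2f6 at 10.7 TPM were lowest. Neighbours in this order had library ranges that did not meet at 3 places, between Max and L3mbtl2, Rybp and Pcgf1, and Pcgf6 and Mga. All other neighbours overlapped in range, as did Rybp (41.7 to 59.1 TPM) and Rnf2 (25.95 to 46.7 TPM). Within each of the 6 libraries, however, L3mbtl2 was above Rybp and Rybp was above Rnf2. The other overlapping neighbours changed order between libraries, so their order is not set. The DNA-binding partners of PRC1.6 stood at both ends of the order, MAX near the top and MGA and E2F6 at the bottom.

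**Figure D1:**
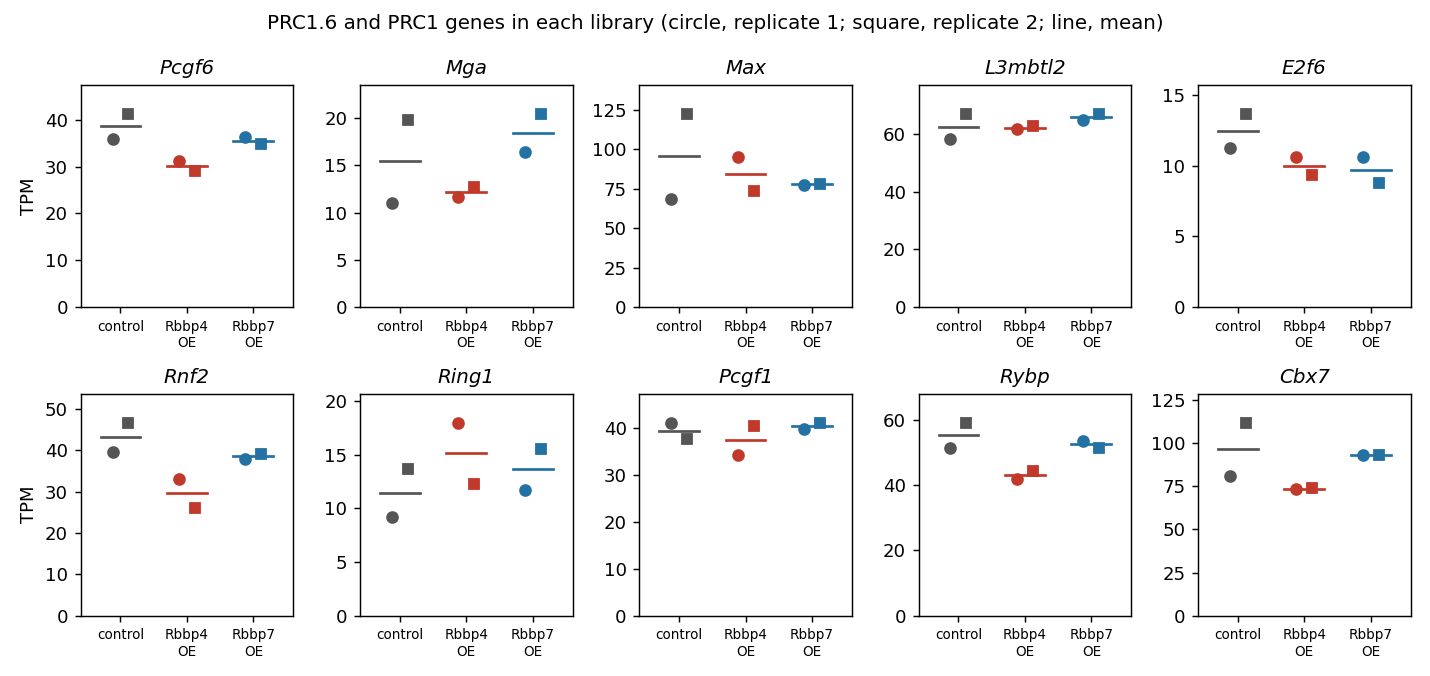
TPM (vertical axis, from 0) of each of the 10 genes in the 3 groups, with a circle for replicate 1, a square for replicate 2 and a line at the group mean. Pcgf6, Rnf2, Rybp and Cbx7 have both Rbbp4 OE libraries below the other 4 libraries, while the Mga and Max controls lie far apart. Over all genes, 37.1% had both Rbbp4 OE libraries below both controls and 38.6% had both below both Rbbp7 OE libraries. The share of all genes with both patterns was not counted.

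Pcgf6 encodes the subunit that defines PRC1.6 (chr19:47033617-47050906, minus strand; here and below GRCm38, GENCODE M21). It was at 36.0 and 41.3 TPM in the controls, 31.3 and 29.1 TPM with Rbbp4 OE, and 36.2 and 34.8 TPM with Rbbp7 OE. Both Rbbp4 OE libraries were the lowest of the 6, and the Rbbp7 OE values overlapped the controls. On the log2(TPM + 1) scale the difference of Rbbp4 OE from control was -0.34 (SE 0.0944, 95% interval -0.57 to -0.11 and limma adjusted p = 0.0688 over 14156 genes). The direct difference of Rbbp4 OE from Rbbp7 OE was -0.23 (95% interval -0.46 to 0.0029, limma adjusted p = 0.269), and that of Rbbp7 OE from control was -0.12 (adjusted p = 0.61).

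Mga encodes the large scaffold of PRC1.6 that pairs with MAX (chr2:119897228-119969581, plus strand). Its controls were at 10.98 and 19.8 TPM, against 11.6 and 12.7 TPM with Rbbp4 OE and 16.4 and 20.4 TPM with Rbbp7 OE. The controls alone spanned almost the whole range, and the groups were apart only between the overexpression lines. That difference, Rbbp4 OE from Rbbp7 OE, was -0.56 (95% interval -1.20 to 0.08, limma adjusted p = 0.311), while against control the differences were -0.27 in Rbbp4 OE (limma adjusted p = 0.546) and 0.29 in Rbbp7 OE (limma adjusted p = 0.653). Max, the shared partner of MGA, MYC and the MXD proteins (chr12:76937269-76962201, minus strand), was at 68.8 and 123 TPM in the controls, 94.98 and 73.3 TPM with Rbbp4 OE, and 77.5 and 78.1 TPM with Rbbp7 OE. Here too the controls enclosed every other library, and its log2 differences from control were -0.14 in Rbbp4 OE (limma adjusted p = 0.773) and -0.24 in Rbbp7 OE (limma adjusted p = 0.728), with 0.10 between the lines.

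L3mbtl2, a chromatin-compacting MBT-domain subunit of PRC1.6 (chr15:81663889-81688315, plus strand), had the narrowest range of the 10 relative to its level. Its libraries held 58.3 and 67.0 TPM in the controls, 61.7 and 62.9 TPM with Rbbp4 OE, and 65.0 and 67.0 TPM with Rbbp7 OE. All groups overlapped in the comparisons with control, and the Rbbp4 OE difference from control was -0.0044 (95% interval -0.21 to 0.20, limma adjusted p = 0.982). The Rbbp7 OE difference from control was 0.08 and that between the lines -0.08 (limma adjusted p = 0.712 and 0.622). E2f6, a repressive E2F factor that carries PRC1.6 to promoters (chr12:16810963-16839742, plus strand), was at 11.2 and 13.7 TPM in the controls, 10.6 and 9.37 TPM with Rbbp4 OE, and 10.6 and 8.80 TPM with Rbbp7 OE. All 4 overexpression libraries were below both controls. Its log2 differences from control were -0.29 in Rbbp4 OE (limma adjusted p = 0.261) and -0.33 in Rbbp7 OE (limma adjusted p = 0.369), and the lines differed from each other by 0.04.

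Rnf2 encodes the main catalytic ligase of PRC1 in mESCs (chr1:151458004-151500955, minus strand). It had 39.6 and 46.7 TPM in the controls, 33.2 and 25.95 TPM with Rbbp4 OE, and 37.9 and 39.2 TPM with Rbbp7 OE. The Rbbp4 OE libraries were the lowest of the 6, and the Rbbp7 OE libraries lay between them and the controls. Its difference of -0.54 in Rbbp4 OE (SE 0.137, 95% interval -0.87 to -0.20, limma adjusted p = 0.0579) was the largest in size of the 10 in this comparison. Against Rbbp7 OE, Rbbp4 OE differed by -0.38 (95% interval -0.72 to -0.05, limma adjusted p = 0.222), and Rbbp7 OE differed from control by -0.15 (limma adjusted p = 0.646).

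The ligase paralog Ring1 (chr17:34020792-34024680, minus strand) had the opposite sign. Its values were 9.19 and 13.7 TPM in the controls, 18.0 and 12.3 TPM with Rbbp4 OE, and 11.7 and 15.5 TPM with Rbbp7 OE, so all 3 groups overlapped. The log2 difference in Rbbp4 OE was 0.37 (95% interval -0.25 to 1.00, limma adjusted p = 0.379), that in Rbbp7 OE 0.24 (limma adjusted p = 0.706) and that between the lines 0.13 (limma adjusted p = 0.815). Rnf2 made up 81.2% and 77.3% of the summed TPM of this pair in control, 64.9% and 67.9% with Rbbp4 OE and 76.4% and 71.6% with Rbbp7 OE. The ratio of Ring1 to Rnf2, chosen after its values were seen, was 0.232 and 0.293 in the controls, 0.542 and 0.472 with Rbbp4 OE, and 0.308 and 0.397 with Rbbp7 OE. Its 3 groups did not overlap, with Rbbp4 OE above control by 0.96 and Rbbp7 OE above control by 0.42 on the log2 scale. A two-sided exact permutation test gave p = 0.333 for each pair of groups, which is the smallest that 2 libraries against 2 allow.

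The promoters of these genes were read from RefSeq (GRCm38.p6) as 300 bases, from 250 before to 50 after 1 transcript start per gene, and 8 of the 10 genes had an entry. For 7 of the 8 this start lay within 47 bases of the GENCODE M21 gene start, and for Cbx7 it lay 38473 bases inside the gene. Over all promoters the start was that of the whole RefSeq gene in 60.4%. They were searched on both strands for CACGTG, the E-box of MAX dimers, GCGGGA, an E2F motif, and TCACACC, a T-box motif of the kind that MGA binds. Of all 32851 promoters, 7.15% held the E-box, 20.0% the E2F motif and 3.98% the T-box motif. Among the 8, the E-box was in 1 (Max), the E2F motif in 2 (E2f6 and Rnf2) and the T-box motif in 0. The Rnf2 promoter (chr1:151500942-151501241, minus strand), that of the member with the largest difference in Rbbp4 OE against control, is shown with the E2F motif in capitals, starting at positions 23 and 281 from its 5′ end, the latter on the opposite strand.
Rnf2: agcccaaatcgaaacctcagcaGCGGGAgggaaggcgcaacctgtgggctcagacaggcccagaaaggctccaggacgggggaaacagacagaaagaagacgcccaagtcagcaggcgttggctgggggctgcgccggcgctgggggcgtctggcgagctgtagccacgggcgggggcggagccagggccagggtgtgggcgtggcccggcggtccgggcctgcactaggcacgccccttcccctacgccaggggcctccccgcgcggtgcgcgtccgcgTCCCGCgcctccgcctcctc

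Pcgf1 encodes the PCGF protein of the variant PRC1 that contains KDM2B and BCOR (chr6:83077869-83080855, plus strand). It was at 41.2 and 37.7 TPM in the controls, 34.25 and 40.5 TPM with Rbbp4 OE, and 39.8 and 41.0 TPM with Rbbp7 OE. The groups overlapped in each comparison with control, and Pcgf1 was the only member that was not higher in the second control than in the first. Its log2 difference in Rbbp4 OE was -0.08 (95% interval -0.33 to 0.17, limma adjusted p = 0.656), that in Rbbp7 OE 0.04 (limma adjusted p = 0.917) and that between the lines -0.11 (limma adjusted p = 0.574).

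Rybp encodes a subunit of variant PRC1 complexes, PRC1.6 included, that stimulates the ligase (chr6:100228565-100287485, minus strand). It was at 51.5 and 59.1 TPM in the controls, 41.7 and 44.4 TPM with Rbbp4 OE, and 53.6 and 51.4 TPM with Rbbp7 OE. The Rbbp4 OE libraries were again the lowest of the 6. The log2 difference in Rbbp4 OE was -0.35 from control (SE 0.0892, 95% interval -0.57 to -0.13, limma adjusted p = 0.057) and -0.28 from Rbbp7 OE (limma adjusted p = 0.188). Rbbp7 OE differed from control by -0.07 (limma adjusted p = 0.769).

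Cbx7 encodes the main CBX reader of canonical PRC1 in mESCs (chr15:79915807-79971119, minus strand). Levels were 81.1 and 112 TPM in the controls, 73.3 and 73.7 TPM with Rbbp4 OE, and 93.3 and 92.9 TPM with Rbbp7 OE. Both Rbbp4 OE libraries were below all others, and the Rbbp7 OE libraries lay between the controls. The log2 difference in Rbbp4 OE was -0.37 (SE 0.142, 95% interval -0.72 to -0.02, limma adjusted p = 0.148). Rbbp4 OE differed from Rbbp7 OE by -0.34 (limma adjusted p = 0.275) and Rbbp7 OE from control by -0.03 (limma adjusted p = 0.95).

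Read together, no member passed either call rule in any comparison. In Rbbp4 OE against control, 0 of 10 had an adjusted p under 0.01 with a fold change over 2, which 0.516% of all genes tested had, and 0 of 10 had an adjusted p under 0.05, which 11.4% of all genes had. At an unadjusted p under 0.05 there were 4 (Pcgf6, Rnf2, Rybp and Cbx7) in limma, the only tool run, a level that 29.6% of all genes reached. There were 9 negative log2 differences (59.0% of all genes) and 1 positive one, and of the 9, Pcgf1 and L3mbtl2 lay near 0 and turned positive under other scalings. The median was -0.28 against -0.08 over all genes, and -0.10 against -0.0070 after a correction for GC content and length added once the data had been seen. For 5 of 10 (Pcgf6, Rnf2, E2f6, Rybp and Cbx7) both Rbbp4 OE libraries were below both controls, a pattern that 37.1% of all genes showed. In 4 of these, all but E2f6, they were also below both Rbbp7 OE libraries. The share of all genes with that wider pattern was not counted, so it is not read as a trait of the members. With only genes at a mean of at least 5 TPM tested, 3 members passed an adjusted p under 0.05: Pcgf6 (0.0437), Rnf2 (0.0328) and Rybp (0.0352), as did 22.6% of all genes in that fit.

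In Rbbp7 OE against control, which used the same control libraries, 0 of 10 passed the stricter rule (0.0353% of all genes) and 0 of 10 the adjusted p under 0.05 (0.487% of all genes), with 0 also at an unadjusted p under 0.05 in limma (15.4% of all genes). The median was -0.05 against -0.0037 over all genes, with 4 positive and 6 negative values (50.7% of all genes were negative). Of the members 2, Rnf2 and E2f6, had both Rbbp7 OE libraries below both controls, a pattern of 23.4% of all genes. Between the overexpression lines, 0 of 10 passed the stricter rule (0.0494% of all genes) and 0 of 10 the adjusted p under 0.05 (0.304% of all genes). At an unadjusted p under 0.05 limma gave 2, Rnf2 and Rybp, against 19.0% of all genes. There were 6 members lower in both Rbbp4 OE libraries than in both Rbbp7 OE libraries, as were 38.6% of all genes, and the median was -0.17 against -0.08, with 7 negative values (63.3% of all genes).

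**Figure D2:**
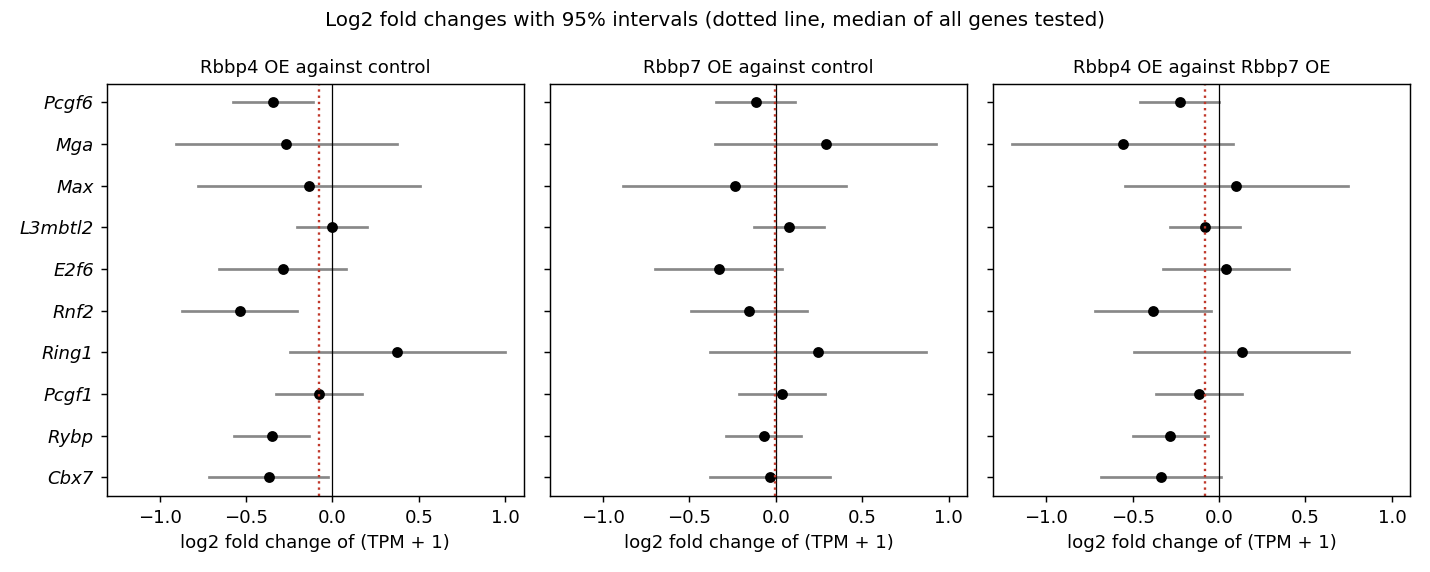
Log2 fold change of TPM + 1 (horizontal axis) of the 10 genes in the 3 comparisons, with points for limma estimates, bars for 95% intervals and a dotted line at the median of all genes tested. In Rbbp4 OE against control the intervals of Pcgf6, Rnf2, Rybp and Cbx7 lie below 0, and none of these genes passed an adjusted p under 0.05.

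The spread between controls bears on all of these values. In the second control 9 of the 10 genes were higher than in the first, and 6 had their highest value of all libraries there. The ratio of the second control to the first was 1.81 for Mga, 1.78 for Max, 1.49 for Ring1 and 1.38 for Cbx7, and 0.916 for Pcgf1. Over all genes the median log2 difference between the controls was 0.087. Without the first control, 3 members passed an adjusted p under 0.05 by limma in Rbbp4 OE against control (Pcgf6 at 0.0473, Rybp at 0.0395 and Cbx7 at 0.0228), as did 11.6% of all genes in that fit, and the members' median was -0.44. Without the second, none did and the median was -0.14. Reads can also be shared: Rnf2 and Cbx7 overlap genes on the opposite strand, Trmt1l (19.4 TPM) and Apobec3 (61.9 TPM), and whether strand was used in counting is not given in the sources used here. A pseudogene copy, Gm8930, matches 83.2% of the longest Pcgf1 transcript at 97.5% identity and was at 0.027 TPM. Rybp-ps matches 15.1% of the longest Rybp transcript at 99.3% identity and was at 0.153 TPM.

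Across the 6 libraries, Pcgf6 varied most closely with Rnf2 among the members (Pearson r = 0.961 of log2(TPM + 1)), followed by Rybp (0.934) and Cbx7 (0.908). Mga varied with L3mbtl2 (0.942). Ring1 was negatively related to Pcgf1 (-0.70) and close to unrelated to Rnf2 (-0.08). Of the 9034 other genes with a mean of at least 5 TPM, the 3 closest to Pcgf6 were Trub1, a pseudouridine synthase gene (r = 1.000), Unc119b (0.997) and Ppp4r2, a phosphatase regulatory subunit gene (0.996). These are descriptions over 6 libraries that include the group differences, and all genes of a library share its scaling.

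The same complexes draw on paralogs, which set the members in context. The summed TPM of the 6 PCGF genes was 222 in both controls, 223 and 227 with Rbbp4 OE and 235 and 248 with Rbbp7 OE. Pcgf2, which builds canonical PRC1, held most of it, with 57.0% and 53.7% in the controls, 64.2% and 63.0% with Rbbp4 OE, and 60.3% and 62.1% with Rbbp7 OE. The share of Pcgf6 was 16.2% and 18.6% in the controls, 14.0% and 12.8% with Rbbp4 OE, and 15.4% and 14.0% with Rbbp7 OE. Its share was thus below both controls in all 4 overexpression libraries, as a description with no test. In TPM, however, Pcgf6 overlapped the controls in Rbbp7 OE. Pcgf2, named outside the fixed rule, was at 127 and 119 TPM in the controls, 143 and 143 TPM with Rbbp4 OE, and 142 and 154 TPM with Rbbp7 OE. Its log2 differences from control were 0.22 in Rbbp4 OE and 0.27 in Rbbp7 OE, and neither was called (limma adjusted p = 0.0794 and 0.164). Relative to Pcgf2, Pcgf6 stood at 0.284 and 0.347 in the controls, 0.219 and 0.203 with Rbbp4 OE, and 0.255 and 0.226 with Rbbp7 OE. Relative to Pcgf1, whose variant complex also uses RYBP, the groups overlapped.

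**Figure D3:**
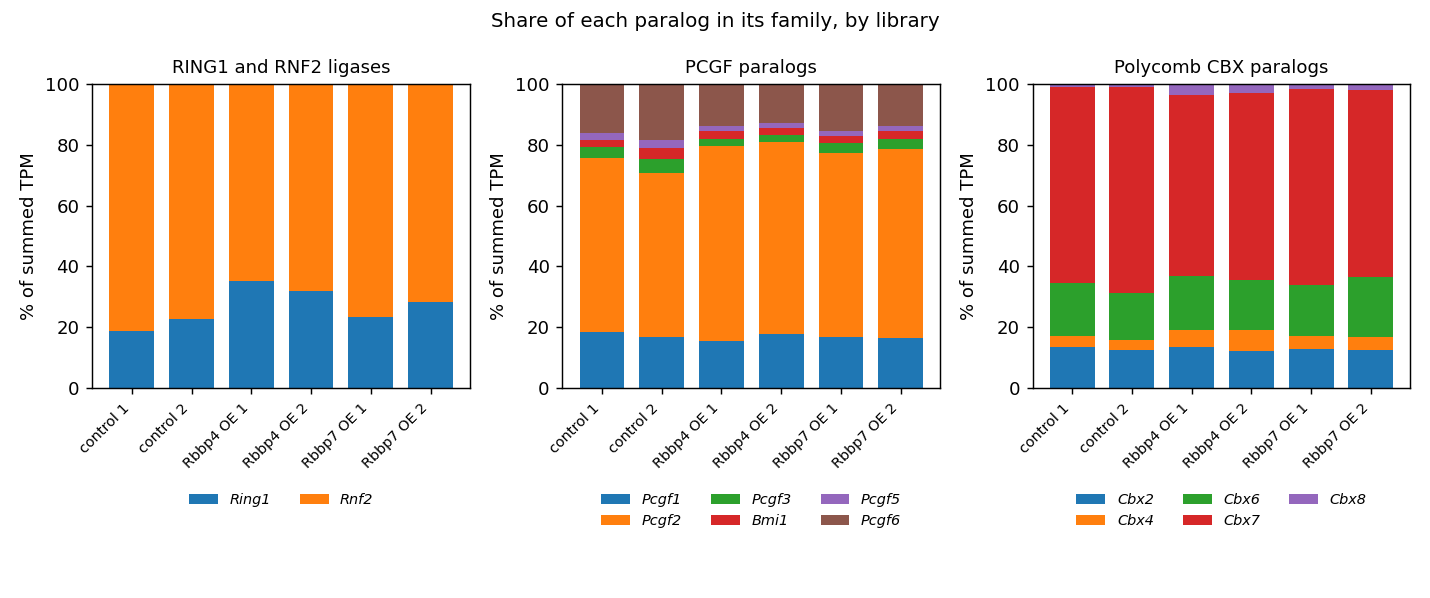
Share of each paralog in the summed TPM of its family (vertical axis, %), as a stacked bar for each of the 6 libraries, for the RING1 and RNF2 ligases, the PCGF paralogs and the polycomb CBX paralogs. Rnf2 takes 64.9% and 67.9% of its pair in the Rbbp4 OE libraries and 71.6% to 81.2% in the other libraries, and Pcgf2 and Cbx7 hold most of their families in every library.

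Of the 22 other PRC1 genes, 3 passed an adjusted p under 0.05 in Rbbp4 OE against control, 1 higher (3.29% of all genes) and 2 lower (8.07% of all genes), and the list median was 0.01. Skp1a, whose protein binds F-box proteins such as KDM2B of the PCGF1 complex, was at 292 and 286 TPM in the controls, 208 and 216 TPM with Rbbp4 OE, and 237 and 230 TPM with Rbbp7 OE. It fell by 0.45 on the log2 scale in Rbbp4 OE (SE 0.0485, limma adjusted p = 0.00884), with no overlap between any of the groups. Pcgf3, of a different variant complex, was at 8.26 and 10.5 TPM in the controls, 5.35 and 5.03 TPM with Rbbp4 OE, and 7.69 and 7.86 TPM with Rbbp7 OE. It fell by 0.74 in Rbbp4 OE (SE 0.147, limma adjusted p = 0.0319), where both libraries were the lowest of the 6. Leaving out 1 library could end these calls. Without the first or the second Rbbp4 OE library the limma adjusted p was 0.0789 or 0.0761 for Skp1a and 0.15 or 0.171 for Pcgf3. For Pcgf3 it was also 0.0899 without the second control and 0.077 or 0.0886 without the first or second Rbbp7 OE library.

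Cbx8, a CBX paralog of Cbx7, was the gene of this list called higher in Rbbp4 OE against control. It was at 1.37 and 1.66 TPM in the controls, 4.51 and 3.65 TPM with Rbbp4 OE, and 2.39 and 3.17 TPM with Rbbp7 OE. The groups did not overlap, and Rbbp4 OE exceeded control by 1.01 on the log2 scale (SE 0.196, limma adjusted p = 0.0302), but with any 1 library left out the limma adjusted p was 0.0605 to 0.155. Cbx8 still made up little of the CBX family, with 1.08% and 1.01% of the summed TPM in control, 3.66% and 3.04% with Rbbp4 OE and 1.65% and 2.10% with Rbbp7 OE. Cbx7 held 64.2% and 67.8%, 59.5% and 61.5%, and 64.4% and 61.4% in the same order. The promoter of Pcgf3, called lower in the same comparison, held no E-box, E2F motif or T-box motif. The Cbx8 promoter (RefSeq, GRCm38.p6, chr11:119040864-119041163, minus strand), that of the 1 gene of this list called higher, held 1 E-box at position 153 and 2 E2F motifs at positions 161 and 230, here in capitals.
Cbx8: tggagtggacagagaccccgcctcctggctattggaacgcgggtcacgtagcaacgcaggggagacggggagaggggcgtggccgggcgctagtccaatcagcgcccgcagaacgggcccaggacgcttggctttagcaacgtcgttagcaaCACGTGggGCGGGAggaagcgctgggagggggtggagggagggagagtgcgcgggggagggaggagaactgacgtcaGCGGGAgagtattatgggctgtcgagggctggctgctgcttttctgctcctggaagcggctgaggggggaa

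Among the 9 other PRC1.6 partners, 1 passed an adjusted p under 0.05 in Rbbp4 OE against control (11.4% of all genes passed, 8.07% lower), with a list median of -0.10. This was Hdac1, a histone deacetylase also shared with NuRD, at 190 and 199 TPM in the controls, 152 and 152 TPM with Rbbp4 OE, and 181 and 179 TPM with Rbbp7 OE. It fell by 0.35 on the log2 scale (SE 0.0499, limma adjusted p = 0.0153), and the Rbbp7 OE libraries lay between the other groups. Its limma adjusted p was 0.108 or 0.116 without the first or second Rbbp4 OE library and 0.0572 without the second Rbbp7 OE library. Of the 8 genes of the MAX network, 0 passed, with 0 at an unadjusted p under 0.05 in limma (29.6% of all genes) and a median of 0.05. Its largest differences in size were 0.12 for Mxd4 (limma adjusted p = 0.76) and 0.08 for Mnt (limma adjusted p = 0.655), both MAX-binding repressors. In the other 2 comparisons 0 genes of the 4 lists passed either rule. At an unadjusted p under 0.05 limma gave 3 of the 22 other PRC1 genes, 0 of the 9 partners, 1 of the 8 MAX network genes and 3 of the 20 germline genes in Rbbp7 OE against control (15.4% of all genes), and 5, 3, 0 and 5 between the lines (19.0% of all genes).

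Germline and meiotic genes, a class that PRC1.6 is known to silence, were then examined. The list of 22 was drawn up, like the other lists, with earlier results of these data known. Whether PRC1.6 acts on each of the 22 genes in these cells was not tested. Of these, 20 had a mean of at least 0.5 TPM and were tested. Tdrd1 and Brdt were not, at means of 0.108 and 0.442 TPM. Not all of the list was silent in these cells: 11 of the 22 were above 1 TPM in every library, controls included. Hsf2bp was the highest, at 72.93 to 90.15 TPM. In Rbbp4 OE against control 2 of the 20 rose at an adjusted p under 0.05 (3.29% of all genes) and 0 fell (8.07% of all genes), 11 had a positive and 9 a negative difference, and the median was 0.03. Stra8, which is required for entry into meiosis, was at 2.98 and 2.72 TPM in the controls, 8.44 and 9.87 TPM with Rbbp4 OE, and 4.15 and 5.34 TPM with Rbbp7 OE. It rose by 1.40 on the log2 scale in Rbbp4 OE (SE 0.167, limma adjusted p = 0.0103), and its 3 groups did not overlap. The limma adjusted p was 0.0803 or 0.0982 without the first or second Rbbp4 OE library and 0.0568 without the second control.

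Sycp3, a component of the synaptonemal complex, was at 5.95 and 6.45 TPM in the controls, 11.2 and 10.7 TPM with Rbbp4 OE, and 6.14 and 7.55 TPM with Rbbp7 OE. It rose by 0.73 in Rbbp4 OE (SE 0.138, limma adjusted p = 0.029), while control and Rbbp7 OE overlapped. With any 1 library left out its limma adjusted p was 0.055 to 0.16. Between Rbbp4 OE and Rbbp7 OE the log2 difference was 0.83 for Stra8 (limma adjusted p = 0.12) and 0.61 for Sycp3 (limma adjusted p = 0.125), so a difference between the lines was not shown for either. Dazl, a germ-cell RNA-binding protein gene, was at 4.35 and 3.82 TPM in the controls, 3.68 and 4.11 TPM with Rbbp4 OE, and 4.31 and 4.12 TPM with Rbbp7 OE, with groups that overlapped. In a bulk sample a change in the number of cells that express such a gene and a change in its RNA per cell cannot be told apart. Of the 20 tested genes, 4 had both Rbbp4 OE libraries above both controls and 4 had both below. Among all 14156 genes, 2943 and 5255 did so. The largest fall in the list was that of Hormad1, by -0.43 in Rbbp4 OE and -0.55 in Rbbp7 OE (limma adjusted p = 0.105 and 0.184). Dazl and Hormad1 were named outside the fixed rule, after their values were seen.

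The promoters of the 2 germline genes called higher in Rbbp4 OE against control are shown because their motif content differed (RefSeq, GRCm38.p6). That of Sycp3 (chr10:88459337-88459636, plus strand) held the E-box at positions 187 and 208, the E2F motif at position 104 and the T-box motif, on the opposite strand, at position 5, all in capitals. That of Stra8 (chr6:34920698-34920997, plus strand) held none of the 3 motifs in these 300 bases.
Sycp3: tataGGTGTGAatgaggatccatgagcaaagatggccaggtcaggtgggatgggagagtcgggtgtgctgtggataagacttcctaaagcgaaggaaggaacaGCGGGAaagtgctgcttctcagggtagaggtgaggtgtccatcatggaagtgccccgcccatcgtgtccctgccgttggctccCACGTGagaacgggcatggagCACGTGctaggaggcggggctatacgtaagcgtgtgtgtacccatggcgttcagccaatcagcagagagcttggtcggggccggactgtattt
Stra8: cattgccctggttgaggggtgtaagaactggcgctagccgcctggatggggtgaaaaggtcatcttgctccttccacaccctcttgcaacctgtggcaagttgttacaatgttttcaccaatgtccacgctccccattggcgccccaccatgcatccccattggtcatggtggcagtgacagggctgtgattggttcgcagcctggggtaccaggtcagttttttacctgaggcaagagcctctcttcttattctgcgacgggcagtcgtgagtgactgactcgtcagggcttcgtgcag

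**Figure D4:**
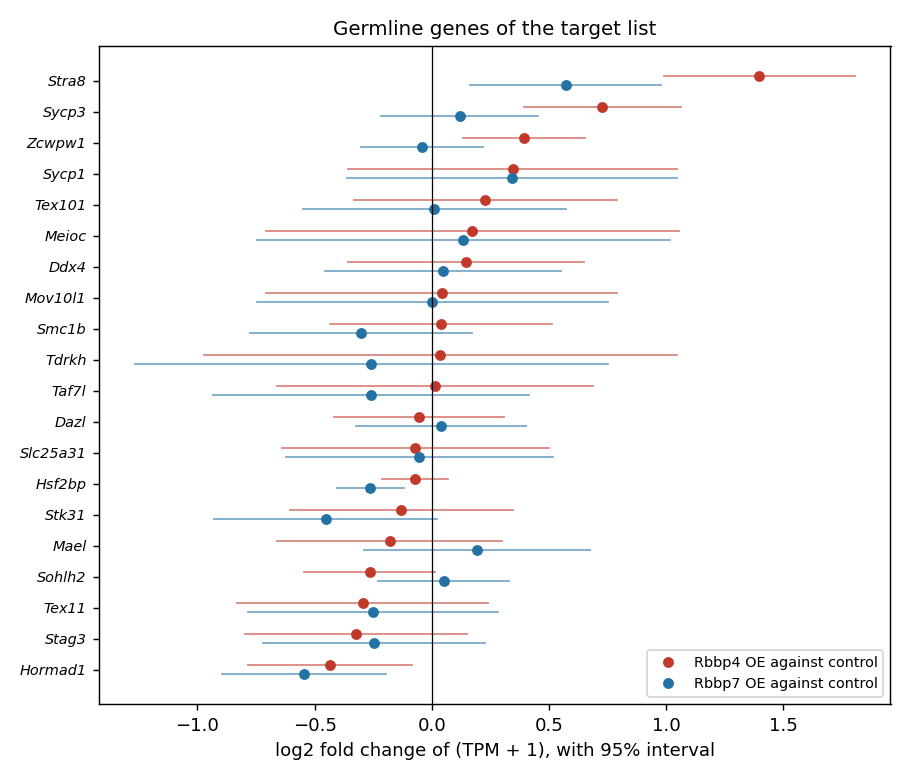
Log2 fold change of TPM + 1 (horizontal axis) of the 20 tested germline genes, as points with 95% intervals, in Rbbp4 OE (red) and Rbbp7 OE (blue), both against the same controls. Stra8 and Sycp3 in Rbbp4 OE passed an adjusted p under 0.05, and the median of the list in Rbbp4 OE was 0.03.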

How the data were processed

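Poly(A) RNA-seq of 6 libraries was grouped from the sample labels. The authors trimmed reads with Trim_galore, aligned them to mm10 with STAR, estimated expression with RSEM on GENCODE annotation and deposited TPM values, which keep no depth. Nothing states that replicates came from separate cultures, so p-values measure only the spread between these samples.

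The study tested counts with another model. Here limma-trend (limma 3.58.1, R 4.3.3) was run on log2(TPM + 1), which understates changes of low genes, for the 14156 genes with a mean of at least 0.5 TPM. All 3 groups shared 1 fit with no covariate, 3 residual and 3.103 prior degrees of freedom, and Benjamini-Hochberg adjustment. Calls needed an adjusted p under 0.01 with a fold over 2 (the study's thresholds) or an adjusted p under 0.05. The fit was also run on simulated data with known changes of 1 or 2 on the log2 scale. Those are larger than the difference of any member, so changes of the members' size were not tried.

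Members and gene lists (other PRC1 genes, other PRC1.6 partners, the MAX network, germline genes and cell type markers) were chosen with earlier results of these data known. Named genes were the members, Rbbp4, Rbbp7, called list genes, the 2 largest differences of a list with no call in Rbbp4 OE, and the 3 genes most like Pcgf6. Some others, among them Pcgf2, Dazl and Hormad1, were named outside this rule. Names and coordinates came from GENCODE M21 (GRCm38, 55141 of 55401 identifiers matched) and copies were searched with blastn 2.17.0. As alternatives, the pseudocount was 0.1 or 5, all genes or those with a mean of at least 5 TPM were tested, TPM values were rescaled by median of ratios or by quantiles, and a replicate block, a robust trend, 2-group fits or the removal of each library was used. A correction for GC content and length was added once the data had been seen.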

Additional observations from a re-analysis of the deposited data

How the results depend on the processing

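In Rbbp4 OE against control, the median log2 difference of the 10 members was -0.22 with a pseudocount of 5, -0.18 with median-of-ratios scaling, -0.16 with quantile normalization and -0.10 with a correction for GC content and length, which was added once the data had been seen, against -0.28 as reported. Between the lines it was -0.0759, -0.0786 and -0.10 under the last 3, against -0.17. Over all genes the Rbbp4 OE median moved from -0.08 to 0.0061, -0.02 and -0.0070 under the same 3, and the genes called at an adjusted p under 0.05 from 466 higher and 1143 lower to 683 and 738, 677 and 821, and 496 and 724. Between the lines those calls moved from 25 higher and 18 lower to 15 and 5 under median-of-ratios scaling or the correction. Members called in Rbbp4 OE were 3 with a mean of at least 5 TPM, where fewer genes were tested, and 1 other PRC1 gene, Skp1a, was then called in Rbbp7 OE (-0.31, limma adjusted p = 0.0473). Other PRC1 genes called in Rbbp4 OE were 1 with no filter, with the replicate block and in the 2-group fit, and 4 with median-of-ratios scaling and quantile normalization, against 3. Germline genes called were 1 with no filter and with the replicate block, and 3 with a mean of at least 5 TPM, both scalings and the correction, against 2, and under the stricter rule 1 (Stra8) with a pseudocount of 0.1, a mean of at least 5 TPM or a robust trend. The cause of these shifts was not tested.

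Values near 0 changed sign. Pcgf1 in Rbbp4 OE was at 0.0207 with median-of-ratios scaling and 0.0276 with quantile normalization. L3mbtl2 in Rbbp4 OE was at 0.0957, 0.0649 and 0.072 with these and the correction, and between the lines at 0.013 with median-of-ratios scaling and 0.0331 with the correction.

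No pairing by replicate number was seen over all genes: differences between replicates correlated between groups by -0.03 to 0.03. Such correlations cannot show that the libraries were unpaired, and the sources do not state how the replicates were made. In the paired fit with the replicate block, Pcgf3 (limma adjusted p = 0.0577), Cbx8 (0.0588) and Sycp3 (0.052) missed 0.05, and Skp1a (0.0264), Hdac1 (0.0372) and Stra8 (0.0262) passed.

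Leaving out each library in turn, Rbbp4 OE against control gave 0 to 3 members called, 0 to 5 other PRC1 genes, 0 to 1 PRC1.6 partner and 0 to 1 germline gene, with 0 in all 4 lists without either Rbbp4 OE library. The members' median ranged from -0.44 to -0.14 there and from -0.19 to 0.10 in Rbbp7 OE, the extremes coming without the first and the second control. Single genes whose sign turned ranged, in Rbbp4 OE against control, from -0.20 to 0.0392 (Pcgf1), -0.67 to 0.13 (Mga), -0.55 to 0.28 (Max) and -0.10 to 0.0946 (L3mbtl2). In Rbbp7 OE against control they ranged from -0.0269 to 0.10 (Pcgf1), -0.019 to 0.51 (Ring1), -0.11 to 0.69 (Mga), -0.65 to 0.17 (Max), -0.0209 to 0.18 (L3mbtl2), -0.17 to 0.0277 (Rybp), -0.26 to 0.20 (Cbx7) and -0.0112 to 0.25 (Sycp3). Between the lines they ranged from -0.23 to 0.0042 (Pcgf1), -0.13 to 0.39 (Ring1), -0.0839 to 0.28 (Max) and -0.0802 to 0.16 (E2f6). A lone library is assumed to vary like the other groups. Depth is unknown for TPM, so counting error could not be set beside these ranges.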
